A study of Mus musculus with 6 samples.

Results

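Interferons are secreted by cells that sense viral nucleic acid, and they act through surface receptors, JAK kinases and STAT transcription factors to switch on a large set of genes. The products of these interferon-stimulated genes sense, bind or degrade viral RNA, and the same signals raise the machinery that displays peptides on major histocompatibility complex (MHC) molecules. MHC class I is made by almost all nucleated cells and shows peptides cut by the proteasome, whereas MHC class II is largely a product of macrophages, dendritic cells and B cells, which form a minority in the pituitary.

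The genes described here are 39 listed members of this system, and they were found on the arrays by matching the RefSeq accession of each probe to the listed symbols. Of the 39 genes, 37 matched 46 of the 55681 probes, and 36 had a probe well above background on at least 3 of the 6 arrays and were tested. Mx1 and Mx2 matched no probe and were not analysed here. Ciita, the transactivator of MHC class II genes, was well above background on 0 of 3 KO arrays and 1 of 3 WT arrays, so it has no fold change. The 36 tested genes fall into 23 interferon-stimulated genes of 25 listed, 9 MHC class I genes of 9 listed and 4 MHC class II genes of 5 listed. The list was drawn up with earlier results of these arrays known.

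The study compared whole pituitaries of Jmjd2a-/- females (KO, n = 3) with those of Jmjd2a+/+ females (WT, n = 3). Its current name is Kdm4a, and its product demethylates histone H3. The labels do not give which part of the gene was deleted or name a cell type or promoter for the deletion. All 6 animals were virgin littermates of C57BL6 background, aged 8 weeks, and all were killed 24 h after their oestrous cycle was activated with soiled bedding from a stud male, so neither group was left without that stimulus. Each array held Cy3-labelled RNA of 1 animal. Values are log2 units relative to the 75th percentile of the array's own spots, and fold changes are log2 of KO over WT with the standard error (SE) that limma gave.

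Kdm4a itself read 1.45, 1.20 and 1.36 on the KO arrays, against 2.14, 1.90 and 1.85 on the WT arrays. The groups did not overlap, and the KO signal was 64.9% of the WT signal (log2 fold change -0.62 ± 0.14 SE, limma adjusted p = 0.238), with an exact two-sided permutation p of 0.1, the smallest that 3 arrays against 3 allow. A second, dim probe of Kdm4a was well above background on only 1 KO array and 1 WT array, so it has no fold change. Its means were -4.97 in KO and -5.06 in WT (exact two-sided permutation p = 0.9). All 12 pituitary markers, among them Prl, Gh, Pomc and Cga, were well above background on all 6 arrays. Of the 8 dendritic cell markers, Xcr1 and Clec9a were above background on no array. KO replicate 2 and WT replicate 1 had the fewest probes above background of their groups (34636 of KO arrays that reached 37590, and 34757 of WT arrays that reached 40569). WT replicate 3 stood apart in neutrophil markers, whose mean over 7 genes was -0.60, -0.80 and -0.36 on the KO arrays and -0.20, -0.16 and 2.12 on the WT arrays, as deviations from each gene's own mean. The number of arrays limits the precision of every value.

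The promoters of several members carry the sequences through which interferon acts, and the stretches shown are those of genes whose values are given later. Promoter windows of 250 bases before to 50 after a gene's start, from RefSeq on GRCm38.p6, were available for 29 members, of which 20 were interferon-stimulated, 7 MHC class I and 2 MHC class II genes. The core of the interferon-stimulated response element, bound by interferon regulatory factors, was searched on both strands as GAAA, any 2 bases and GAAA again. It lay in windows of 10 of the 20 interferon-stimulated genes, 1 of 7 class I genes and 0 of 2 class II genes. A gene counted once if any of its windows held a match. Counted by window instead of by gene, the share was 3.44% of all 32851 windows. Capitals mark the motif or its reverse complement, and overlapping matches run together.
Ifit1, chr19:34640765-34640833, plus strand: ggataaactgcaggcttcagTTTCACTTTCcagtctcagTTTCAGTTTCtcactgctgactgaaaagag
Ifit3, chr19:34583353-34583436, plus strand: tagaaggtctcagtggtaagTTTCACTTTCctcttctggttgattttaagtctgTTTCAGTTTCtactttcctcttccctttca
Isg15, chr4:156200855-156200916, minus strand: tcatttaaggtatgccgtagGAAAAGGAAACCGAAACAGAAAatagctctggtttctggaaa
Oas1a, chr5:120907526-120907565, minus strand: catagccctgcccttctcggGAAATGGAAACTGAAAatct
Rsad2, chr12:26456543-26456592, minus strand: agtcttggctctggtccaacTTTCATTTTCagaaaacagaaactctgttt
B2m, chr2:122147528-122147577, plus strand: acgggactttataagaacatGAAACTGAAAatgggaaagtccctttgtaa

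The gamma-activated site, TTCNNNGAA, is the palindrome bound by STAT dimers. It was found in windows of 5 of the 20 interferon-stimulated genes, 1 of 7 class I genes and 0 of 2 class II genes. Counted by window, the share was 8.3% of all windows. The site is shown in capitals for Irf1 and Psmb8.
Irf1, chr11:53769904-53769952, plus strand: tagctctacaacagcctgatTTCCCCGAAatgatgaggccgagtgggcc
Psmb8, chr17:34198078-34198126, plus strand: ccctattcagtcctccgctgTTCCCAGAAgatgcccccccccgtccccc
The windows of the 2 class II genes held neither motif. Both genes had CCAAT, the letters bound by NF-Y, as did 6 of the 7 class I and 6 of the 20 interferon-stimulated genes. CCAAT is short and occurs on one strand or the other in 37.4% of all windows. It is in capitals, on either strand, in the stretches of H2-Aa and H2-Eb1.
H2-Aa, chr17:34287847-34287891, minus strand: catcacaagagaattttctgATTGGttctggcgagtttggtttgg
H2-Eb1, chr17:34305788-34305856, plus strand: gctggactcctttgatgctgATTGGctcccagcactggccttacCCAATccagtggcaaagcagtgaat
A match describes the letters of the window and is not evidence of binding in the pituitary.

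None of the 36 tested members passed an adjusted p of 0.05 by limma, where 0% of the 26889 features tested did, and the smallest adjusted p among them was 0.411. At an unadjusted p under 0.05 the count of members was also 0, beside 12.8% of all features. The members' fold changes were spread evenly about 0, with 18 above and 18 below, from -0.50 for Ifit2 to 0.39 for Parp14. Over all 26889 features, 10490 lay above 0 and 16399 below. The members' median was -0.02, against -0.08 over all features, and 24 of the 36 lay above the median of all features. This shift was not tested. By set, the median was -0.05 for the interferon-stimulated genes (11 above 0 and 12 below), 0.14 for the class I genes (6 above and 3 below) and -0.07 for the class II genes (1 above and 3 below). Of the 36 members, 33 had a 95% interval within a 2-fold change either way and 22 within 1.5-fold. The 3 that did not stay within 2-fold were Ifit1, Ifit2 and Oasl1, in which a difference of over 2-fold is not excluded. Leaving out 1 array moved the interferon-stimulated median between -0.14 (without WT replicate 1) and 0.11 (without KO replicate 2), and the class II median between -0.23 (without WT replicate 3) and 0.08 (without WT replicate 1), so neither had a stable sign. Between the 2 rows of the slide, of which row 2 held KO replicate 2 and WT replicate 2, the sign turned in 19 of the 36 members. The share over all features was not computed, so this count cannot be read as particular to the members. In whole-gland RNA, fewer cells of a type and less RNA per cell cannot be told apart.

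**Figure D1:**
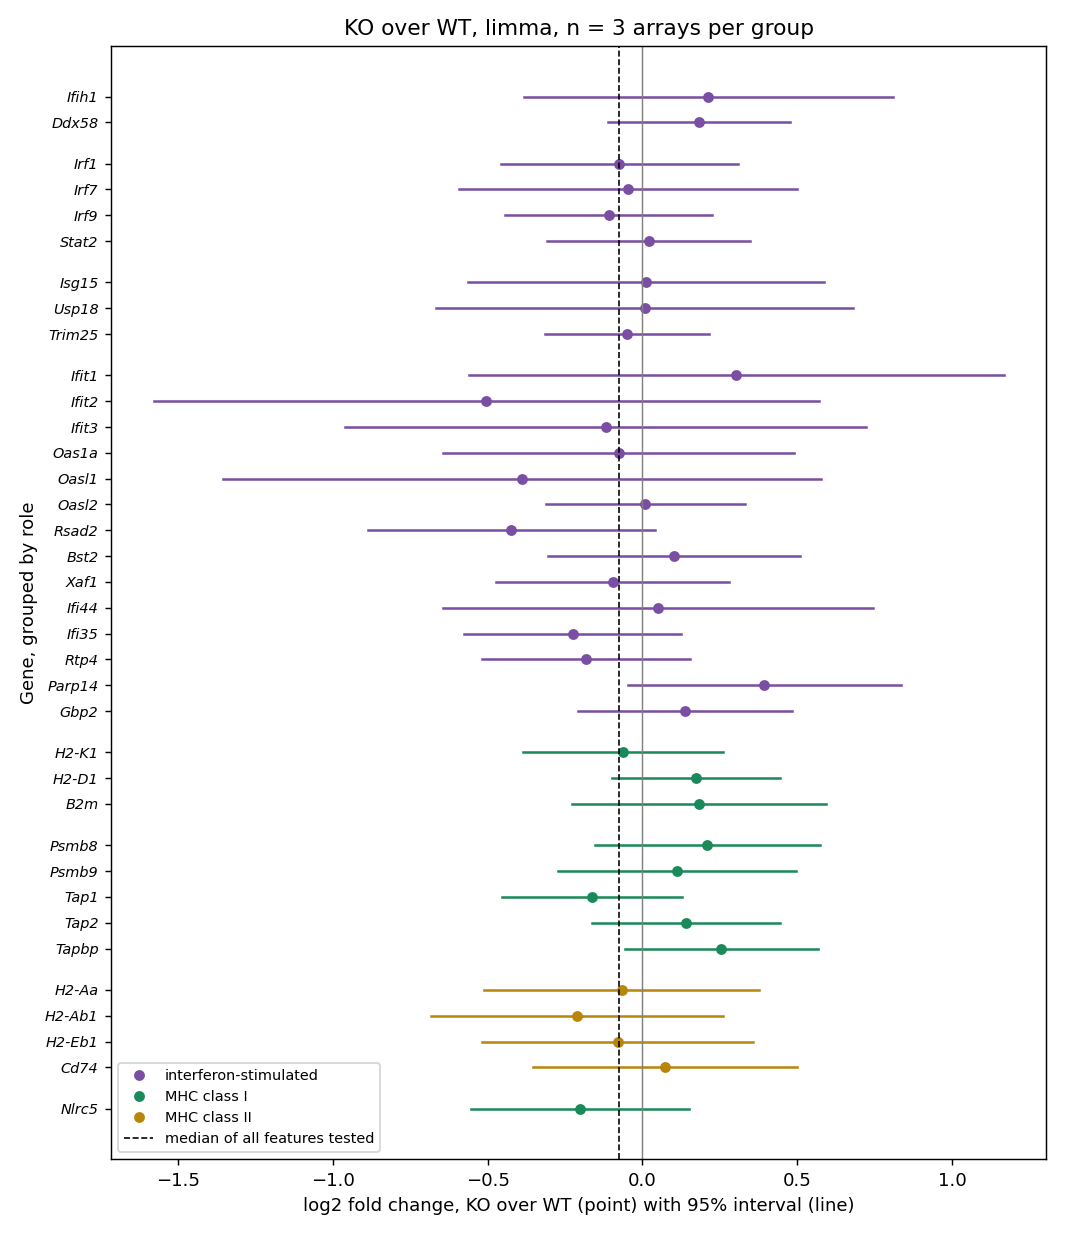
Log2 fold change of KO over WT (horizontal axis, points) with its 95% interval from limma (lines) for the 36 tested genes, in order of role and coloured by set. All 36 intervals cross 0, the points run from -0.50 (Ifit2) to 0.39 (Parp14), and the dashed line marks the median of all features, -0.08.

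For 4 of the 36 members (11.1%) all KO arrays lay on one side of all WT arrays, beside 20.6% of all features. Ddx58 and H2-D1 were the 2 of these that lay higher in KO, beside 7.14% of all features, and Ifi35 and Tap1 the 2 that lay lower, beside 13.5%. A separation of the groups was thus no more frequent among the members than among features at large. The split between directions over all features depends on the scaling. Of the features at an unadjusted p under 0.05, 69.7% were lower in KO here, 56.6% after median centring, 46.8% in the authors' table and 42.9% after quantile normalization.

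The sensors of viral RNA come first in the pathway. Ddx58, which encodes RIG-I, read 0.84, 0.65 and 0.65 on the KO arrays and 0.42, 0.59 and 0.58 on the WT arrays. All 3 KO arrays lay above all 3 WT arrays, by a margin that was small beside the distance of KO replicate 1 and WT replicate 1 from the others. The fold change was 0.18 ± 0.12 SE (limma adjusted p = 0.531). Ifih1, which encodes MDA5, read 1.46, 1.04 and 1.46 in KO and 0.68, 1.59 and 1.06 in WT. Its groups overlapped fully, with WT replicate 2 the highest of the 6 arrays and WT replicate 1 the lowest, and its fold change was 0.21 ± 0.25 SE. It was 0.59 in slide row 1 (2 arrays a group) and -0.55 in slide row 2 (1 array a group). The second, dimmer probe of each gene gave a difference of the same sign, 0.24 ± 0.15 SE for Ddx58 and 0.44 ± 0.20 SE for Ifih1.

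Among the transcription factors, Irf1, an early target of interferon-gamma, read 2.78, 2.67 and 2.89 in KO and 3.04, 2.96 and 2.56 in WT. The KO values lay inside the range of the WT values, and the fold change was -0.07 ± 0.16 SE with a 95% interval of -0.46 to 0.31. Stat2 and Irf9, which act together in type I interferon signalling, differed by 0.02 ± 0.14 SE and -0.11 ± 0.14 SE. Irf7, which amplifies the type I response, differed by -0.05 ± 0.23 SE. None of the 4 factors separated the genotypes. Trim25, a ubiquitin ligase that activates RIG-I, was the steadiest interferon-stimulated member, reading 4.13, 4.11 and 4.13 in KO and 4.11, 4.17 and 4.25 in WT. Its difference of -0.05 ± 0.11 SE had a 95% interval of -0.32 to 0.21.

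Isg15, a ubiquitin-like protein attached to other proteins during the interferon response, and Usp18, the protease that removes it, had nearly equal means in both genotypes but scattered within each. Isg15 read 2.19, 1.64 and 1.91 in KO, against 1.45, 1.97 and 2.27 in WT, and differed by 0.01 ± 0.24 SE. Usp18 read -0.47, -1.06 and -0.81 in KO, against -1.26, -0.87 and -0.22 in WT, and differed by 0.01 ± 0.28 SE. In both genes KO replicate 1 was the highest and KO replicate 2 the lowest KO array, and WT replicate 1 was the lowest and WT replicate 3 the highest WT array. The scatter between animals of the same genotype was thus far larger than the difference between genotypes.

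Of the 14 tested effectors, 6 lay above 0 and 8 below. Parp14, an enzyme that attaches single ADP-ribose units to proteins, had the largest positive difference, reading 1.08, 0.82 and 1.09 in KO and 0.27, 0.89 and 0.64 in WT. WT replicate 2 lay within the KO range and the other WT arrays lay under it. The fold change was 0.39 ± 0.19 SE, with a 95% interval of -0.05 to 0.83 (limma unadjusted p = 0.0721, adjusted p = 0.417), and it was -0.07 between the 2 arrays of slide row 2. Rsad2, which encodes the antiviral enzyme viperin, had the smallest p-value of all members and differed in the other direction. It read -0.63, -1.36 and -0.95 in KO, against -0.56, -0.63 and -0.48 in WT. KO replicate 1 lay at the lower edge of the WT values and the other KO arrays lay below them. The fold change was -0.42 ± 0.20 SE, with an interval of -0.89 to 0.04 (limma unadjusted p = 0.0679, adjusted p = 0.411). Both genes passed an unadjusted p of 0.05 in some of the alternative settings given in the closing section, and neither passed an adjusted p of 0.05 in any of them.

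Ifi35, an interferon-induced leucine zipper protein, read 1.02, 1.31 and 1.35 in KO and 1.62, 1.36 and 1.38 in WT. The groups did not overlap, but KO replicate 3 lay close to WT replicate 2, and the fold change was -0.23 ± 0.15 SE (limma adjusted p = 0.522). Rtp4, which in the mouse restrains the interferon response, read 2.15, 1.95 and 2.21 in KO, against 2.17, 2.23 and 2.47 in WT. The groups overlapped through KO replicate 3 and WT replicate 1, and the fold change was -0.18 ± 0.14 SE. The other effectors were Bst2 (tetherin, which holds budding viruses at the cell surface), at 0.10 ± 0.17 SE, Gbp2 (a GTPase that attacks the vacuoles of intracellular microbes), at 0.14 ± 0.15 SE, Xaf1 (a partner of the apoptosis inhibitor XIAP), at -0.10 ± 0.16 SE, and Ifi44, at 0.05 ± 0.29 SE. Oasl2, a member of the oligoadenylate synthetase family, differed by 0.01 ± 0.14 SE.

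The IFIT proteins bind viral RNA, and the oligoadenylate synthetases make the messenger that activates RNase L. Ifit1, Ifit2, Ifit3 and Oasl1 had the widest scatter of all members. Ifit1 read -1.196, -2.103 and -1.997 on the KO arrays and -2.784, -1.726 and -1.695 on the WT arrays. KO replicate 1 and WT replicate 1 stood at the top and the bottom of the 6 values, and the fold change of 0.30 ± 0.36 SE had an interval of -0.56 to 1.17. Ifit2 read -2.97, -3.97 and -4.13 in KO, against -3.91, -2.36 and -3.29 in WT, and differed by -0.50 ± 0.45 SE. The difference was 0.05 in slide row 1, -1.62 in slide row 2 and -0.09 without WT replicate 2. Its highest value was on WT replicate 2, 2.93-fold over the lowest WT array on the linear scale.

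Ifit3 read 1.103, 0.0043 and 0.352 in KO, against 0.0552, 0.654 and 1.106 in WT, and its fold change was -0.12 ± 0.35 SE. KO replicate 1 and WT replicate 3 were the highest and nearly equal, and the groups overlapped over almost their whole range. Oasl1, which in the mouse holds back translation of Irf7, read 0.06, -1.32 and -0.96 in KO and -0.92, -0.27 and 0.14 in WT. KO replicate 1 was 2.61-fold over KO replicate 2, and the highest WT array was 2.08-fold over the lowest, while the difference between genotypes was -0.39 ± 0.41 SE. Oas1a read 0.60, 0.12 and 0.38 in KO and -0.02, 0.53 and 0.82 in WT. The WT range enclosed the KO range, and the fold change was -0.08 ± 0.24 SE. Oas1a has close copies in the mouse genome, so its probes may also read their transcripts.

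**Figure D2:**
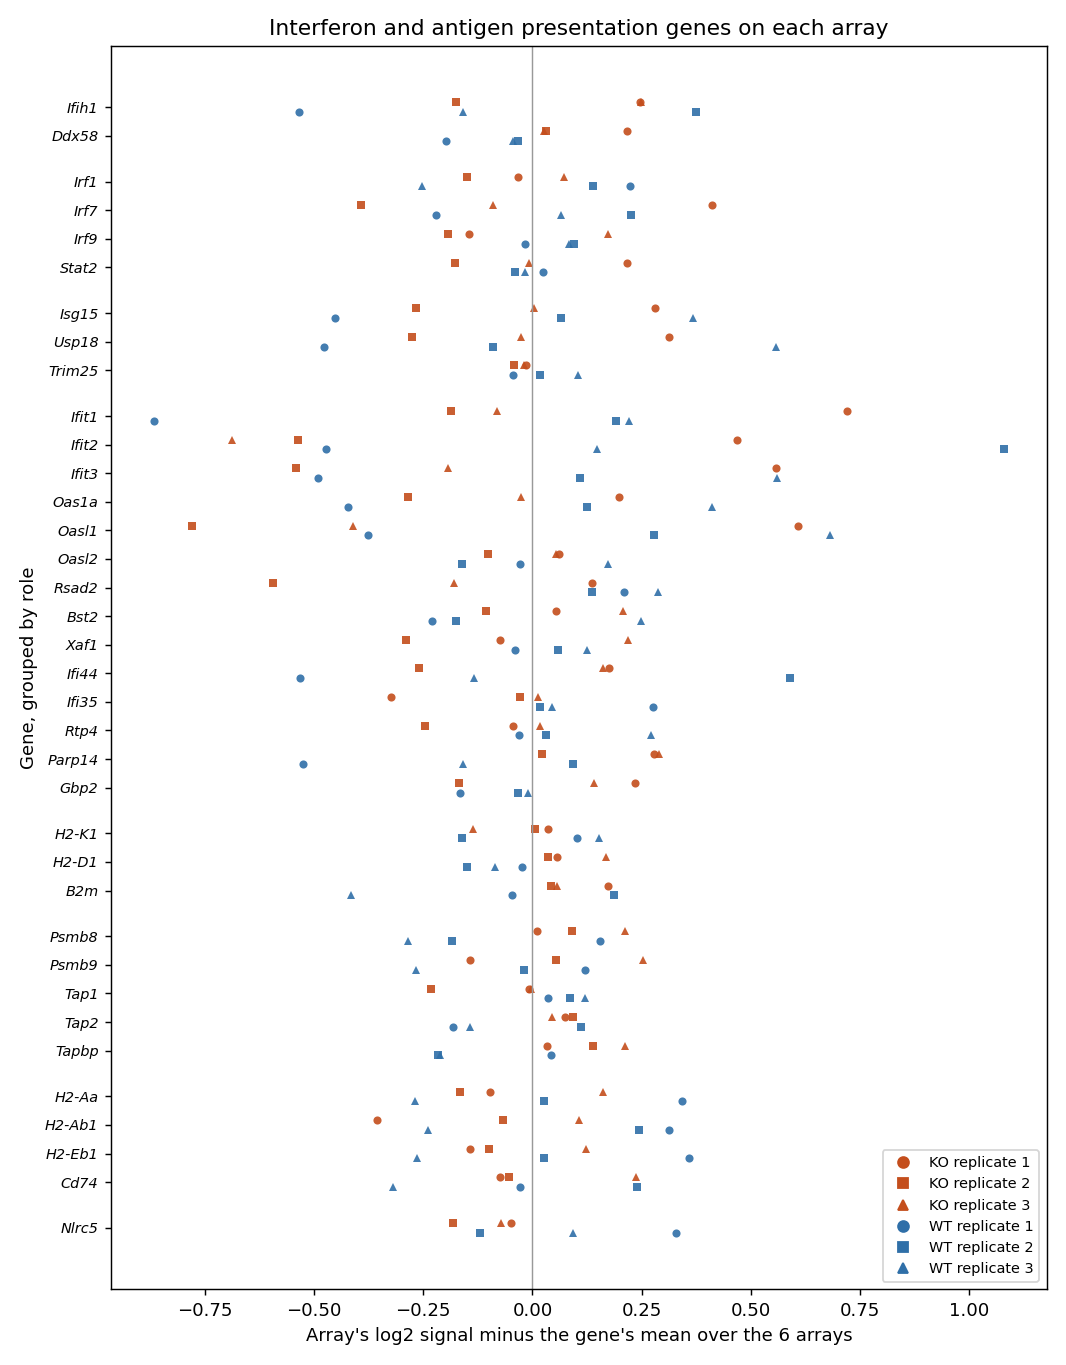
Each array's log2 signal minus the gene's mean over the 6 arrays (horizontal axis) for the 36 tested genes, grouped by role from sensors at the top to Nlrc5 at the bottom. In the interferon-stimulated genes KO replicate 1 (orange circle) lies mostly to the right and KO replicate 2 (orange square) and WT replicate 1 (blue circle) mostly to the left, with the widest scatter in Ifit1, Ifit2, Ifit3 and Oasl1.

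The interferon-stimulated genes moved together from animal to animal within each genotype. Of the 23, KO replicate 1 gave the highest KO value in 15 and KO replicate 2 the lowest in 20, and KO replicate 2 gave the highest in 0. Over all features the same arrays held these places in 35.1%, 28.6% and 32.3%. Among WT animals, replicate 1 was the lowest in 18 of the 23 and replicate 3 the highest in 13, against 31.1% and 26.7% of all features. The mean deviation of the 23 genes from their own means was 0.20, -0.25 and -0.0042 on the KO arrays and -0.23, 0.13 and 0.16 on the WT arrays. One array of each genotype therefore lay low, and the difference between genotype means was -0.04, against a pooled standard deviation between animals of 0.22. The genes share their arrays and are not independent observations, and these counts, which were made after the values were seen, are a description with no test.

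**Figure D3:**
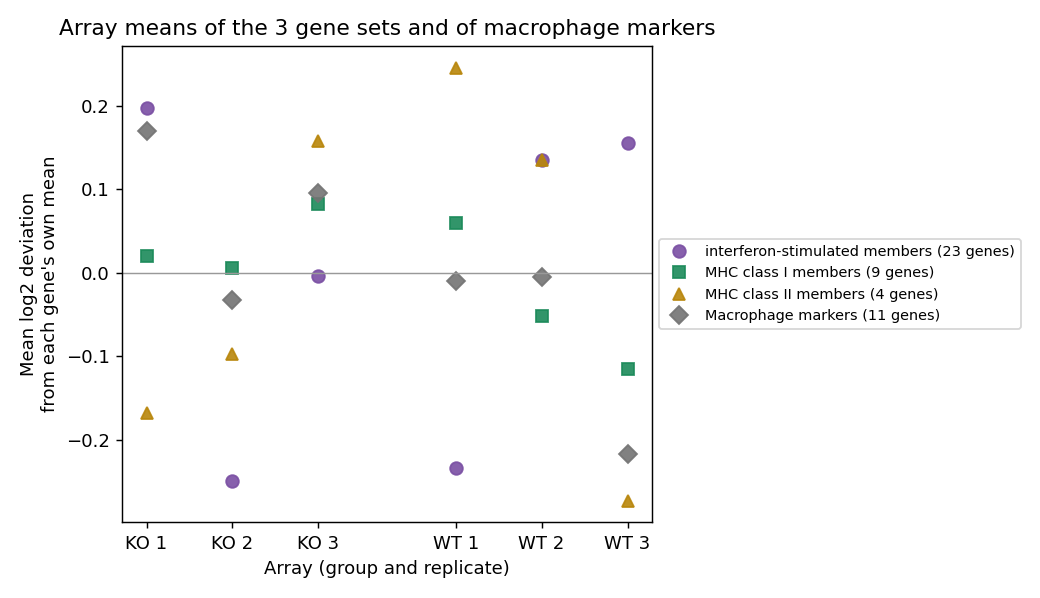
Mean deviation of the log2 signal from each gene's own mean (vertical axis) on each KO and WT array, for the 3 sets of members and for macrophage markers. The interferon-stimulated set is low on KO replicate 2 (-0.25) and WT replicate 1 (-0.23), and the class II set is high on KO replicate 3 (0.16) and low on WT replicate 3 (-0.27).

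The order of the arrays held in other versions of the values, which were added after seeing the data. KO replicate 2 was the lowest KO array for 17 of 23 interferon-stimulated genes with normexp background correction, for 20 of 23 with quantile normalization and for 20 of 22 in the authors' table. WT replicate 1 was the lowest WT array for 19, 18 and 16 of them. The arrays also differed in brightness, with a 75th percentile of 248, 234 and 305 intensity units in KO and 171, 313 and 193 in WT. KO replicate 2 and WT replicate 1 were the dimmest of their groups, and the part of brightness in the order of the arrays was not tested. In the list of other interferon-stimulated genes, KO replicate 2 was the lowest KO array for 15 of 33 and WT replicate 1 the lowest WT array for 14 of 33, and the widest scatter in that list was that of Cxcl10. This chemokine, singled out after its values were seen, read -0.17, -2.36 and -3.02 in KO, against -2.78, -0.65 and -0.25 in WT. As in Ifit1, KO replicate 1 was high and WT replicate 1 low, and the fold change was -0.62 ± 0.89 SE.

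The spread between animals of one genotype was wide in many interferon effectors and narrow in most class I genes. The pooled within-group standard deviation had a median of 0.25 among the interferon-stimulated genes, 0.14 among the class I genes, 0.25 among the class II genes and 0.21 over all features (log2 units). It was above the median of all features in 13 of 23 interferon-stimulated genes, 1 of 9 class I genes and 4 of 4 class II genes. At the extremes were Ifit2, with 0.71, which only 3.37% of all features exceeded, and Trim25, with 0.05, which 98.5% exceeded. The spread of an array value also depends on the brightness of its probe, which was not taken into account here, and the difference in spread between the sets was not tested.

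**Figure D4:**
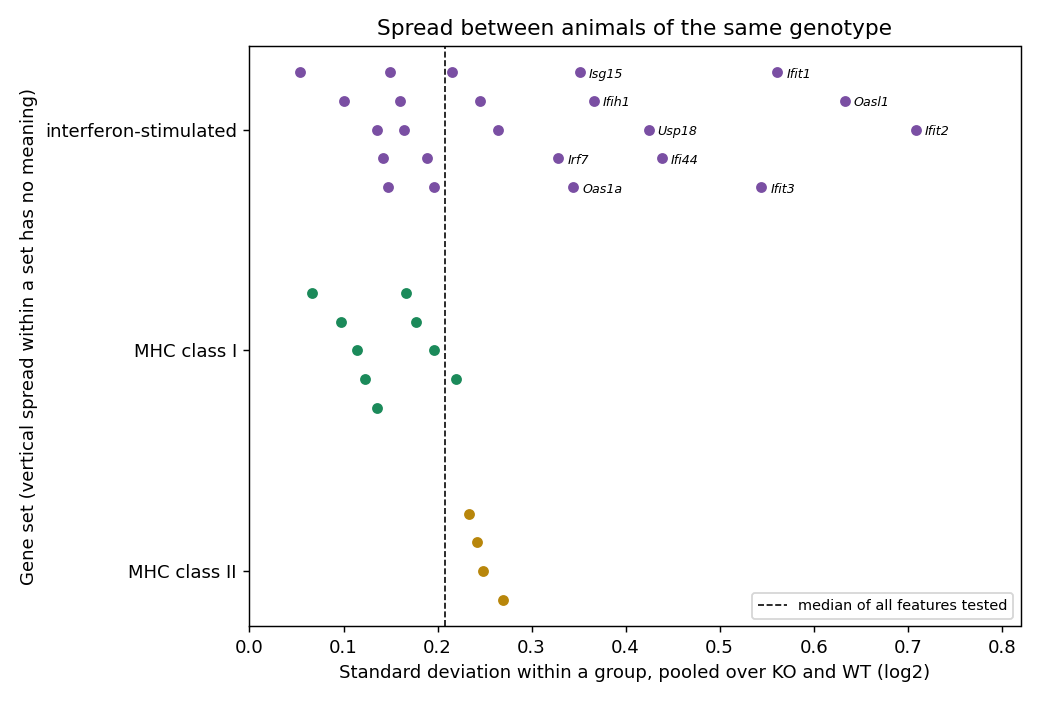
Standard deviation between animals of the same genotype, pooled over KO and WT (horizontal axis, log2), for each tested member of the 3 sets. Class I genes lie mostly below the median of all features (dashed line, 0.21), and the largest values belong to Ifit2, Oasl1, Ifit1 and Ifit3.

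The classical class I heavy chains present peptides to CD8+ T cells. H2-D1 read 3.99, 3.97 and 4.10 in KO, against 3.91, 3.78 and 3.84 in WT. Every KO array lay above every WT array, and the fold change was 0.17 ± 0.11 SE with an interval of -0.10 to 0.44 (limma adjusted p = 0.525). H2-K1 read 5.21, 5.18 and 5.04 in KO and 5.28, 5.02 and 5.33 in WT. Its values overlapped, at -0.06 ± 0.14 SE, and its second probe gave 0.17 ± 0.11 SE, so the direction of H2-K1 depends on the probe. The heavy chain genes are near-identical over long stretches, and signals of their probes may hold transcripts of several of them. B2m, the light chain shared by all class I molecules, read 5.01, 4.88 and 4.90 in KO and 4.79, 5.02 and 4.42 in WT. WT replicate 3 was the lowest and WT replicate 2 the highest of the 6 arrays, and the difference was 0.18 ± 0.17 SE.

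Of the 5 genes that supply class I molecules with peptide, 4 lay above 0. Tapbp, which encodes the loading chaperone tapasin, read 3.64, 3.74 and 3.82 in KO, against 3.65, 3.39 and 3.39 in WT. KO replicate 1 lay just under WT replicate 1, and the other values were separated. The difference was 0.26 ± 0.13 SE, with an interval of -0.06 to 0.57 (limma unadjusted p = 0.0928, adjusted p = 0.441), the smallest p among the 13 tested MHC members. Psmb8 and Psmb9, the interferon-inducible subunits of the immunoproteasome, differed by 0.21 ± 0.15 SE and 0.11 ± 0.16 SE.

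Tap1 and Tap2 form the transporter that carries peptides into the endoplasmic reticulum, and their values differed in opposite directions. Tap1 read -2.46, -2.69 and -2.46 in KO, against -2.42, -2.37 and -2.33 in WT. No KO value reached the WT values, although the gap to KO replicates 1 and 3 was narrow, and the fold change was -0.16 ± 0.12 SE (limma adjusted p = 0.568). Tap2 read 4.026, 4.045 and 3.996 in KO, against 3.770, 4.063 and 3.809 in WT. WT replicate 2 lay above all KO arrays, the other WT arrays lay below them, and the difference was 0.14 ± 0.13 SE. The promoter windows of Tap1 and Psmb9, which lie head to head on chromosome 17, overlap. Nlrc5, the transactivator of class I genes, read -2.76, -2.89 and -2.78 in KO and -2.38, -2.83 and -2.62 in WT. KO replicate 1 and KO replicate 3 lay within the WT range and KO replicate 2 under it, and the difference was -0.20 ± 0.15 SE. Its second probe, at -0.35 ± 0.32 SE, had the same sign.

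The median of the class I set rested in part on 1 array. It was 0.14 with all arrays and 0.02 without WT replicate 3, which read lowest of the WT arrays in 3 of the 9 genes. The set's array means were 0.02, 0.01 and 0.08 in KO and 0.06, -0.05 and -0.12 in WT, and WT replicate 1 lay within the KO values.

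The class II genes also moved together within genotypes, in an order unlike that of the interferon-stimulated genes. H2-Eb1, a beta chain, read 4.30, 4.34 and 4.57 in KO and 4.80, 4.47 and 4.18 in WT. H2-Aa, the alpha chain of the other class II molecule, read 1.172, 1.104 and 1.432 in KO, against 1.613, 1.297 and 1.0002 in WT. The KO range lay inside the WT range in both genes, with WT replicate 1 on top and WT replicate 3 at the bottom. H2-Ab1, the partner of H2-Aa, read 3.87, 4.16 and 4.33 in KO and 4.54, 4.47 and 3.99 in WT. Cd74, the invariant chain that guides class II molecules to the endosome, read 3.17, 3.19 and 3.48 in KO and 3.21, 3.48 and 2.92 in WT. KO replicate 3 was the highest KO array and WT replicate 3 the lowest WT array in all 4 genes, also with normexp, with quantile normalization and in the authors' table, beside 32.6% and 35.4% of all features. The same arrays held these places in 5 and 6 of 9 other class II genes and in 10 and 8 of 13 genes of signalling and feedback. The fold changes were -0.08 ± 0.18 SE for H2-Eb1, -0.07 ± 0.19 SE for H2-Aa, -0.21 ± 0.20 SE for H2-Ab1 and 0.07 ± 0.18 SE for Cd74. No genotype difference exceeded the spread between animals, and the second probe of H2-Ab1 gave -0.17 ± 0.17 SE.

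Markers of the cells that carry class II were set beside these values. All 11 tested macrophage markers were well above background on every array, and 8 of them lay above 0, with a median of 0.11. Their array means were 0.17, -0.03 and 0.10 in KO and -0.01, -0.01 and -0.22 in WT, so WT replicate 3 was the lowest array for macrophage markers as it was for class II genes, while KO replicate 1, the lowest array for class II genes within KO, was the highest for macrophage markers. Lyz2 (0.76 ± 0.26 SE) and Mrc1 (0.60 ± 0.19 SE) were the 2 macrophage markers at an unadjusted p under 0.05, both higher in KO, beside 3.89% of all features, and limma's adjusted p was 0.345 and 0.333. Higher at that threshold were also Batf3 of the dendritic cell list (0.47 ± 0.18 SE, limma adjusted p = 0.36) and Cd79b of the B cell list (0.70 ± 0.13 SE, limma adjusted p = 0.224). These are the brightest probes. A dimmer probe of Cx3cr1 was lower in KO (-0.41 ± 0.15 SE, limma unadjusted p = 0.0268), as was 1 of Itgam (-0.40 ± 0.14 SE, limma unadjusted p = 0.0287). The brightest probes of these macrophage markers gave -0.27 ± 0.16 SE and 0.08 ± 0.19 SE. Dimmer probes of Csf1r lay above 0, at 0.20 ± 0.18 SE and 0.27 ± 0.15 SE. The 6 tested dendritic cell markers had array means of 0.22, -0.01 and 0.15 in KO and -0.24, -0.01 and -0.10 in WT. Among them, Cd209a was well above background on 3 KO arrays and 0 WT arrays, so it was tested through its KO values alone. It read -4.56, -4.22 and -3.84 in KO and -6.00, -4.64 and -4.68 in WT. The dendritic cell means include Cd209a and so cannot be read as a difference between genotypes. The array means of the 5 B cell markers were 0.10, -0.03 and -0.20 in KO and -0.09, 0.07 and 0.14 in WT. The 8 T and NK cell markers had array means of 0.08, -0.14 and -0.31 in KO and 0.43, -0.15 and 0.09 in WT, with 1 gene above 0 and 7 below. The tested probes of Cd3e and Cd4 had KO means of 2.94 and 2.89, far above Cd3d (-3.84) and the second probe of Cd4 (-3.80). Whether those 2 bright probes read T cell transcripts was not tested. The part of these cell types in the class II and interferon values was not tested.

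The rest of the pathway was read from 95 further genes, of which 91 matched a probe and 87 were tested. As in the members, they were balanced about 0, with 43 above, 44 below and a median of -0.0017. Over all features 10490 lay above 0 and 16399 below, and 56 of the 87 lay above the median of all features. That shift was not tested. At an unadjusted p under 0.05, 6 were higher in KO, beside 3.89% of all features, and 6 were lower, beside 8.93%. By limma's adjusted p the count was 0, and the smallest adjusted p was 0.297. The groups did not overlap in 21 of the 87 (24.1%), beside 20.6% of all features, with 13 higher in KO and 8 lower. Of the interferon genes, only Ifnb1 and Ifng were listed, and Ifnb1 was well above background on no array and Ifng on 0 KO arrays and 1 WT array. The receptor chains Ifnar1 and Ifngr1 differed by 0.01 ± 0.12 SE and -0.05 ± 0.13 SE.

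**Figure D5:**
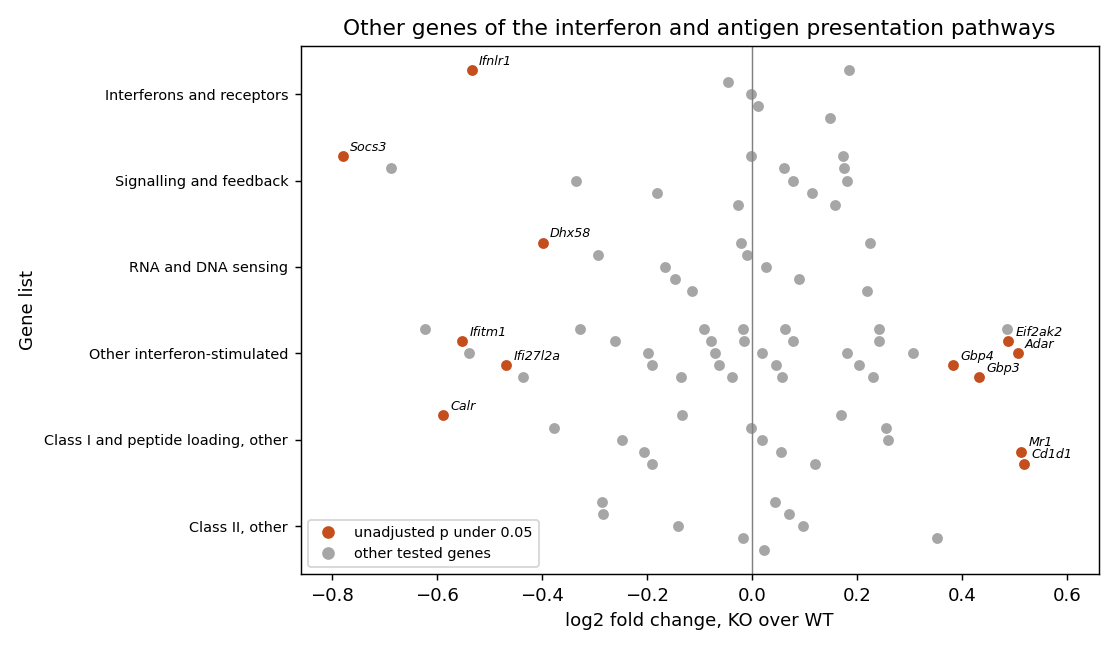
Log2 fold change of KO over WT (horizontal axis) of the 87 other genes tested, in 6 lists (vertical position within a list has no meaning). Orange points mark an unadjusted p under 0.05, 6 on each side of 0, and none passed an adjusted p of 0.05.

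Among those lower in KO, Socs3, a feedback inhibitor of cytokine signalling through JAK kinases, had the smallest p. It read 1.61, 1.51 and 1.78 in KO, against 2.53, 2.73 and 1.97 in WT, and the groups did not overlap. The fold change was -0.78 ± 0.21 SE (limma unadjusted p = 0.0078, adjusted p = 0.297). Ifitm1, a membrane protein that hinders viral entry, read -0.18, -0.13 and 0.20 in KO and 0.58, 0.62 and 0.35 in WT. Its groups were also separate, at -0.55 ± 0.15 SE (limma adjusted p = 0.303). Calr, the endoplasmic reticulum chaperone calreticulin that takes part in class I assembly, read 4.69, 4.81 and 4.71 in KO, against 5.03, 5.35 and 5.61 in WT. Every KO array lay below every WT array, and the fold change was -0.59 ± 0.17 SE (limma adjusted p = 0.312). The other genes lower at an unadjusted p under 0.05 were Dhx58 (-0.40 ± 0.12 SE), which encodes the RNA sensor LGP2, Ifnlr1 (-0.53 ± 0.17 SE), a receptor chain of type III interferon, and Ifi27l2a (-0.47 ± 0.20 SE). These are the brightest probes. A dimmer probe of Cgas, of the RNA and DNA sensing list, was also lower in KO (-0.84 ± 0.24 SE, limma unadjusted p = 0.0105). It read -3.89, -3.85 and -4.13 in KO, against -2.92, -2.77 and -3.64 in WT, without overlap. The brightest probe of Cgas gave -0.01 ± 0.17 SE, so the difference in Cgas depends on the probe.

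Higher in KO at the same threshold were Gbp3, Cd1d1, Adar, Mr1, Gbp4 and Eif2ak2. Gbp3, a GTPase of the family of Gbp2, read 1.16, 1.26 and 1.49 in KO and 0.79, 0.86 and 0.96 in WT. The groups were separate, at 0.43 ± 0.14 SE (limma unadjusted p = 0.0158, adjusted p = 0.331). Cd1d1, a class I-like molecule that presents lipids, read 0.49, 0.44 and 0.62 in KO, against 0.26, 0.05 and -0.32 in WT, and differed by 0.52 ± 0.17 SE (limma adjusted p = 0.339). Adar, the enzyme that edits adenosine in double-stranded RNA, read 1.15, 1.21 and 1.53 in KO, against 0.55, 1.06 and 0.76 in WT, and differed by 0.51 ± 0.18 SE (limma adjusted p = 0.351). On these probes every KO array lay above every WT array. The second probe of Adar, also above background on all arrays, gave 0.15 ± 0.12 SE (limma unadjusted p = 0.272) with overlapping groups, and that of Cd1d1 gave 0.49 ± 0.32 SE (limma unadjusted p = 0.178), also with overlap. Mr1, which presents microbial vitamin metabolites, differed by 0.51 ± 0.19 SE, Gbp4 by 0.38 ± 0.14 SE and Eif2ak2, the RNA-activated kinase PKR, by 0.49 ± 0.18 SE. By list, the counts at an unadjusted p under 0.05 were 4 higher and 2 lower of 33 other interferon-stimulated genes, 2 higher and 1 lower of 15 other class I genes, and 0 of 9 other class II genes. They were 0 higher and 1 lower in each of the lists of interferons and receptors (6 tested), signalling and feedback (13 tested) and RNA and DNA sensing (11 tested). These counts take only the brightest probe of each gene.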

How the data were processed

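Pituitary RNA of 6 mice was measured on one-colour Agilent arrays that, per the file headers, shared 1 slide and 1 scan, and the labels name 3 separate littermates in each group. The deposited spot files hold intensity values that Agilent Feature Extraction 11.0.1.1 had background-subtracted and detrended, per the file headers. A table of the authors holds log2 values of 29154 spots. Limma is named, with no version, in the submitters' processing notes, and how that table was normalized is not stated there.

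Control spots and outlier spots were left out. Spots of a probe were averaged as log2 of the processed signal, after which the 75th percentile of the array was taken off. A probe was kept if 3 or more arrays had it well above background (36742 of 55681), and the probe with the highest mean stood for its gene. Saturated spots among the members numbered 0. The genotypes were compared in limma 3.58.1 under R 4.3.3 (lmFit and eBayes, two-sided), with Benjamini-Hochberg adjustment over 26889 features, of which 16463 had a RefSeq symbol. The steps were tested on simulated data.

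Array values are printed for members at an unadjusted p under 0.05 or without overlap between groups and for the member with the highest mean of each role. They are also printed for members of the array-to-array pattern and those with the smallest p, both chosen after their values were seen. Of the other pathway genes, array values are printed for the 3 with the smallest p in each direction, and for Cxcl10, which was chosen after its values were seen. The members and lists were chosen with earlier results of these data known. The alternatives were normexp with an offset of 50 on median spot brightness, quantile normalization, median centring, the authors' table, other probe filters and summaries, robust fitting with a variance trend, weights for arrays, the replicate number or the slide row as a block, each slide row alone, and leaving out each array.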

Additional observations from a re-analysis of the deposited data

How the results depend on the processing

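In all 20 settings with a test, 0 members passed an adjusted p of 0.05, and the smallest adjusted p was 0.189, without WT replicate 2. Over all features, 25 were called with normexp, 27 in the authors' table, 27 with a variance trend and robust fitting and 11 with probes above background on all arrays, against 0 otherwise, and leaving out 1 array gave 0 to 1 (1 without WT replicate 1). Members at an unadjusted p under 0.05 and higher in KO numbered 2 with normexp (Parp14, Tapbp), 3 in the authors' table (H2-D1, Tapbp, Parp14), 1 with the variance trend (Parp14), 2 in slide row 1 alone (Parp14, Ifih1) and 0 to 2 when 1 array was left out (2 without WT replicate 1, 1 without WT replicate 2). Rsad2 was the 1 member lower at that threshold with normexp, in the authors' table, with the variance trend, with slide row as a block and without KO replicate 1, so leaving out 1 array gave 0 to 1. The count over all features ran from 1968 without KO replicate 3 to 5508 without WT replicate 2.

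The median of the interferon-stimulated set was -0.29 in slide row 2 alone, which is 1 pair of arrays and no test, 0.10 in slide row 1 alone and -0.14 to 0.11 when 1 array was left out. That of the class I set was 0.021 without WT replicate 3 and 0.198 without WT replicate 1, the ends of its range when 1 array was left out, and 0.201 with quantile normalization. That of the class II set ran from -0.23 to 0.077 when 1 array was left out. Same-numbered KO and WT arrays deviated with correlations of 0.15, -0.18 and -0.08, and arrays of unlike number with up to 0.21. Weak correlations cannot show whether the numbers stood for pairs of animals. With the replicate block, 2865 features and 0 members stood at an unadjusted p under 0.05 and 0 features were called. The cause of these shifts was not tested. All 36 tested members were well above background on all 6 arrays.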
